A study of Mus musculus with 19 samples.

Results

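Mouse splenic natural killer (NK) cells that had received interleukin 2 (IL-2) together with a JAK inhibitor at 4 µM, the highest dose in the series, were set against NK cells that had received no IL-2. The members were chosen by their titles: the 3 IL-2 samples with either inhibitor code at 4 µM and the 3 samples titled as untreated, which makes 6 of the 19 samples. The comparison asks what remains of the IL-2 response at that dose, and which genes then lie below the level of cells without IL-2.

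The cells came from spleens of male C57BL/6 mice aged 6 weeks, and the labels name no engineered allele. They were enriched by negative selection, a procedure that removes other cell types and leaves the NK cells untouched, and the labels give NK1.1 as their marker. The 4 µM group held 2 samples with the JAK3 inhibitor (code 6226, replicates 1 and 2) and 1 sample with the JAK1 inhibitor (code 3404), all with IL-2 at 250 U/ml. The series' design text gives 8 h of culture; the titles of the 3 samples at 4 µM name no time. The untreated group held replicates 2, 3 and 4, and the 4 samples with IL-2 alone served as a reference. The titles of untreated replicates 3 and 4 give 8 h, that of replicate 2 gives no time, and the labels name no vehicle for the untreated cells. Nothing in the labels says that replicates came from separate mice or cultures, so the p-values rest on a spread between samples that may be technical. The number of arrays limits the precision, and the JAK1 inhibitor at 4 µM rests on 1 array.

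The IL-2 receptor signals through JAK1, bound to the beta chain (Il2rb), and JAK3, bound to the common gamma chain. These kinases phosphorylate STAT5, which drives genes of survival, growth and cytotoxicity as well as its own feedback inhibitors of the CIS and SOCS family. JAK1 also serves the receptors for type I and type II interferon, whereas JAK3 works only with the common gamma chain; type I interferon acts on genes of antiviral defence, and NK cells are themselves the source of much interferon-gamma.

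Each sample was 1 Affymetrix Mouse Gene 1.0 ST array, and 19752 genes were measured. The deposited intensities lay on a pair of scales, with a sample median of 7.49 to 7.59 on the log2 scale in 7 samples and of 5.70 to 5.90 in 12. Among the 6 samples compared, untreated replicate 2 lay on the higher scale and the other 5 on the lower one, so the fit carried a scale term, and values are also given from the lower-scale samples alone, which leaves untreated replicate 2 out. All levels below are log2 intensities with the fitted scale effect removed, and a difference of 1 is a 2-fold change. The log2 intensities of all genes correlated at 0.962 to 0.98 between untreated samples, at 0.978 between the JAK3 inhibitor samples, and at 0.985 and 0.989 between the JAK1 inhibitor sample and those 2. JAK3 inhibitor replicate 1 stood apart in several gene groups: its mean level over 31 G2/M genes was 5.79 against 7.02 and 6.77 in the other 4 µM samples, over 15 T cell genes 6.04 against 6.90 and 6.76, and over 17 neutrophil genes 7.66 against 8.36 and 8.28. The myeloid granule gene Mpo was at 6.13 in that sample and at 9.24 in both others, with untreated samples at 8.91, 8.74 and 8.66. The share of such cells and their RNA content cannot be told apart in bulk RNA, and the part of either in the results was not tested.

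NK cell genes were present in every sample compared. The mean level over 13 measured NK markers, among them Ncr1, Eomes and Nkg7, was 7.99, 7.73 and 7.72 in untreated replicates 2, 3 and 4 and 8.16, 8.18 and 8.08 in the samples at 4 µM (here and below in the order JAK3 inhibitor replicate 1, JAK3 inhibitor replicate 2, JAK1 inhibitor). B cell genes (14 measured) averaged 8.63 to 8.87 in the 6 samples and macrophage and monocyte genes (20 measured) 7.96 to 8.29, so genes of other spleen cells were also well represented. Levels of different lists come from different probes and were not ranked against each other.

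No gene was called between the 4 µM samples and the untreated samples. With limma and Benjamini-Hochberg adjustment over 19752 genes, 0 genes (0%) reached an adjusted p under 0.05 and the smallest adjusted p was 0.266, while 2050 genes had an unadjusted p under 0.05, 476 of them higher (2.41%) and 1574 lower (7.97%). For comparison, IL-2 alone against the same untreated samples raised 1296 genes (6.56%) and lowered 512 (2.59%), 1808 in all (9.15%), and 4 µM inhibitor against IL-2 alone raised 716 (3.62%) and lowered 1194 (6.04%), 1910 in all (9.67%). These comparisons share samples, so their values are only set side by side. Counts of list members raised or lowered, given below, are to be read beside these shares of all genes. Differences between the 4 µM and untreated groups ran from -1.26 to 1.08 with an SD over genes of 0.203, against -3.08 to 5.19 with an SD of 0.356 for IL-2. The 95% interval of the difference lay within 2-fold in both directions in 19621 genes (99.3%) and reached past it in 131. A lack of calls does not show that the groups were alike: the median standard error was 0.153, and smaller shifts could not be told from the spread between samples. A term for the form of the sample titles in place of the scale moved the median of all genes to -0.586 and put the medians of all lists below 0, so list medians are to be read beside that of all genes.

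**Figure D1:**
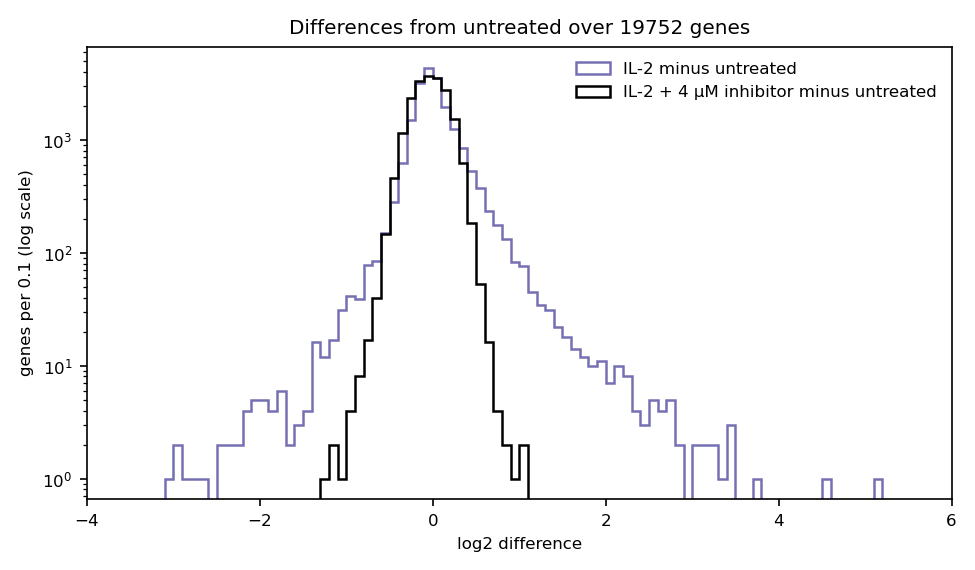
Histograms over 19752 genes of the log2 difference from untreated samples for IL-2 alone and for IL-2 with 4 µM inhibitor; the y axis counts genes on a log scale. The IL-2 values reach from -3.08 to 5.19, whereas the values at 4 µM stay between -1.26 and 1.08.

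The difference between the groups varied with brightness, and counts of genes above or below untreated are read against this. Over all genes the median difference was -0.035 and 11142 genes (56.4%) lay below untreated. Among the dimmest 6584 genes the median was -0.14 with 81.3% below, among the middle 6584 it was -0.06 with 62.4%, and among the brightest 6584 it was 0.10 with 25.5%. Groups that did not overlap were likewise more often lower (2071 genes, 10.5%) than higher (475 genes, 2.4%). The 1194 olfactory and vomeronasal receptor genes, which most tissues leave silent, had a median of -0.18 with 1001 below (83.8%). Their mean level was 3.89, 4.09 and 4.2 in untreated replicates 2, 3 and 4 and 3.88, 3.96 and 3.79 at 4 µM. Their median difference was -0.05 after quantile normalization, -0.09 with median centring and -0.26 (1058 below) in the lower-scale samples alone.

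Genes that IL-2 raised strongly lay near the untreated level at 4 µM. IL-2 raised 334 genes at least 2-fold, with a median rise of 1.35; over those genes the difference between 4 µM and untreated had a median of -0.01 and ran from -1.26 (Rtp4) to 0.78 (Prf1), and in 306 (91.6%) its interval lay within 2-fold. Of the 120 genes that IL-2 lowered at least 2-fold (median -1.31), the median at 4 µM was -0.05, with a range from -0.75 (Nqo1) to 0.88 (Thbs1) and 115 (95.8%) within 2-fold. The untreated samples enter both sides of these figures, which are given as a description. Of a panel of 25 genes of the IL-2 response and its signalling, 22 were measured. IL-2 raised 18 and lowered 1 of them, and at 4 µM 18 were lower and 2 higher than with IL-2 alone. Against untreated their differences spanned -0.53 to 0.78, with 17 of 22 intervals within 2-fold.

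Gzmb, the cytotoxic protease granzyme B, showed the widest swing of the panel. Its level was 7.04, 5.88 and 6.80 in the untreated samples, 11.41, 11.46, 12.17 and 12.03 with IL-2 and 6.62, 6.94 and 6.89 at 4 µM. The 4 µM values all lay within the untreated range and far from every IL-2 sample. IL-2 raised Gzmb by 5.19, and at 4 µM it was 0.24 ± 0.37 (SE) above untreated, with a 95% interval of -0.54 to 1.02 and an adjusted p of 0.822. Prf1, which encodes the pore-forming protein perforin, was the panel gene farthest above untreated. It measured 7.26, 6.79 and 6.99 untreated, 7.86, 7.98 and 7.54 at 4 µM, and 9.52 to 10.12 with IL-2. The groups did not overlap, the 4 µM samples lying between the other groups, but the difference from untreated of 0.78 ± 0.25 (interval 0.25 to 1.30) had an adjusted p of 0.38. It was 0.90 in the lower-scale samples alone and 1.28 with a replicate block, which put Gzmb at 0.89 above untreated.

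The cytokine and chemokine genes of the panel lay at or below the untreated level in the main fit. Ifng, the gene of interferon-gamma, was at 6.09, 6.27 and 6.09 untreated and at 5.77, 5.99 and 5.99 at 4 µM. All 3 values at 4 µM were below every untreated value, yet the difference of -0.24 ± 0.18 had an adjusted p of 0.644; IL-2 had raised Ifng by 3.78. Xcl1, a chemokine that draws dendritic cells, was at 7.0, 6.6 and 6.93 untreated and 6.4, 6.94 and 6.80 at 4 µM. Its groups overlapped, with a difference of -0.13 ± 0.22 against an IL-2 rise of 3.41. The interferon-induced chemokines Cxcl9 and Cxcl10, which IL-2 raised by 4.52 and 3.48, stood at -0.53 ± 0.25 and -0.51 ± 0.29 against untreated. Cxcl10 measured 6.5, 5.98 and 6.18 untreated and 5.93, 5.55 and 5.64 at 4 µM with no overlap. Cxcl9 overlapped because JAK3 inhibitor replicate 1, at 5.94, lay above untreated replicate 2, at 5.67. With a replicate block Xcl1 was at 0.7 and Ifng at 0.25 against untreated, while Cxcl9 was at -0.12 and Cxcl10 at -0.6.

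The feedback inhibitors of the receptor pathway were near the untreated level. Cish, a STAT5 target that encodes the inhibitor CIS, was at 5.78, 5.70 and 5.66 untreated and 5.50, 5.72 and 5.38 at 4 µM. The groups overlapped in 1 sample, and the difference was -0.18 ± 0.15 (interval -0.50 to 0.14), against a rise of 2.10 with IL-2. Socs1, an inhibitor of JAK kinases, was at 6.37, 5.98 and 6.33 untreated and 6.22, 6.4 and 6.56 at 4 µM. The difference was 0.17 ± 0.15 (interval -0.14 to 0.48), against 3.01 with IL-2. Socs2 and Socs3 differed from untreated by -0.01 and 0.08. Over the 8 measured genes of the SOCS family the median was 0.06, and all 8 intervals lay within 2-fold. With a replicate block that median was 0.38 and 0 of 8 lay below untreated.

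The receptor and kinase genes differed among themselves. Il2rb, the beta chain shared by the IL-2 and IL-15 receptors, measured 10.03, 9.42 and 9.74 untreated and 10.38, 10.10 and 10.36 at 4 µM. Every 4 µM value exceeded every untreated value, by 0.55 ± 0.18 on average (interval 0.18 to 0.92, adjusted p 0.38); IL-2 had raised it by 1.52. Il2ra, the alpha chain that gives the receptor high affinity, measured 7.69, 7.01 and 7.34 untreated and 6.45, 6.91 and 7.52 at 4 µM. The JAK3 inhibitor samples were the lowest of the 6 and the JAK1 inhibitor sample lay inside the untreated range, with a pooled difference of -0.38 ± 0.20. Jak1 was at 10.81, 10.35 and 10.67 untreated and 10.81, 11.10 and 10.84 at 4 µM, a difference of 0.31 ± 0.13 that did not pass the test. Jak1 was higher at 4 µM than with IL-2 alone, by 0.57 (adjusted p 0.00532). Stat5a and Stat5b differed from untreated by 0.00 and 0.11.

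Growth and survival genes followed the same course in the main fit. Bcl2, the anti-apoptotic protein, was at 8.43, 7.93 and 8.64 untreated and 8.01, 8.43 and 8.15 at 4 µM, a difference of -0.14 ± 0.18 against an IL-2 rise of 2.29. Myc, a transcription factor of growth, was at 7.78, 7.05 and 7.31 untreated and 6.77, 7.60 and 7.45 at 4 µM (-0.10 ± 0.21, against 2.32 with IL-2). The 2 groups overlapped in both genes. Ccnd2 and Pim1, a cyclin and a kinase of the STAT5 programme, differed from untreated by 0.03 and 0.19 after IL-2 rises of 2.72 and 1.08. With a replicate block all these genes lay above untreated, Pim1 by 0.86, Ccnd2 and Myc each by 0.39 and Bcl2 by 0.23. Il7r, the IL-7 receptor chain, moved the other way: with IL-2 its level fell by 1.85 on the log2 scale, and at 4 µM its values of 8.06, 8.62 and 8.58 overlapped the untreated values of 8.80, 8.71 and 8.20. Over 39 measured genes of the IL-2/STAT5 response, 29 were raised by IL-2, beside 6.56% of all genes. At 4 µM 29 were lower than with IL-2, beside 6.04% of all genes. Against untreated 17 lay above and 22 below, with a median of -0.05 beside -0.035 for all genes. With a replicate block the list median was 0.35 and 4 of 39 lay below, beside 0.01 for all genes.

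**Figure D2:**
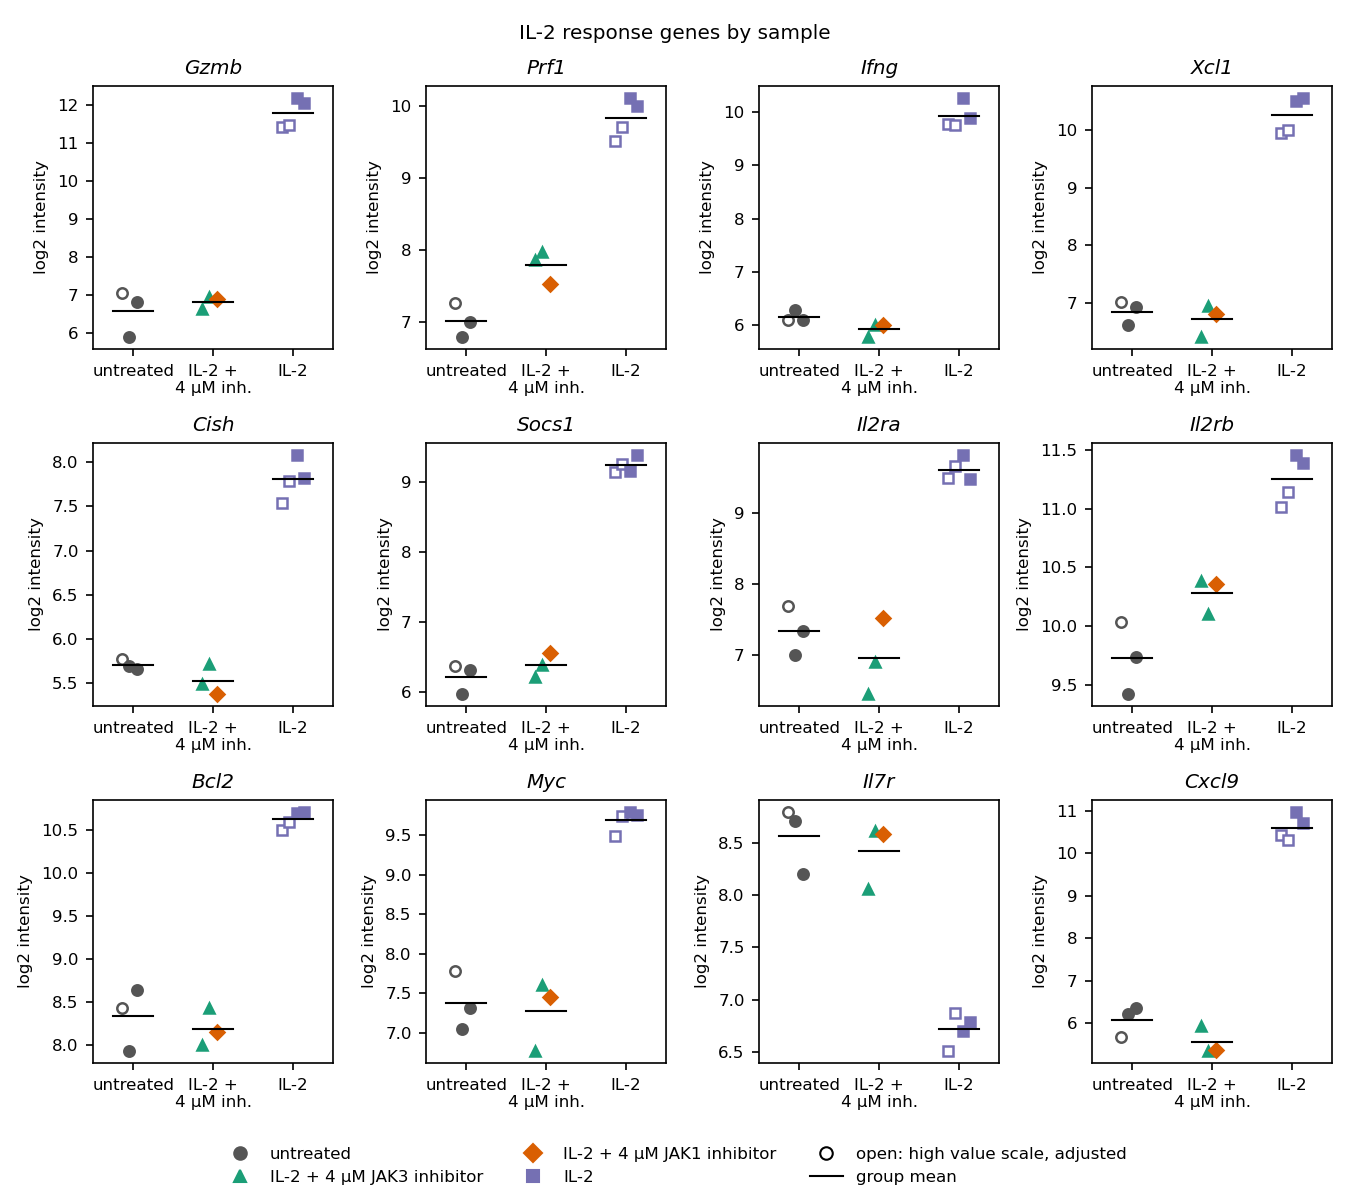
Scale-adjusted log2 intensity of 12 panel genes in each untreated sample, each sample with IL-2 and 4 µM inhibitor, and each IL-2 sample; open symbols mark samples of the higher intensity scale and bars the group means. In most panels the 4 µM samples sit at the untreated level; Prf1 and Il2rb lie above it without overlap and Ifng below it.

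The type I interferon-stimulated genes lay mostly below the untreated level. Of 36 measured genes, 35 had a fitted value below untreated and 1 above (Stat2, 0.06), with a median of -0.33 beside -0.035 for all genes. The count was 36 of 36 after quantile normalization, with a median of -0.36, but 16 of 36 with a replicate block, with a median of 0.03. None passed the adjusted test; 12 had an unadjusted p under 0.05, all lower (7.97% of all genes), and 9 had no overlap between the groups, all lower (10.5% of all genes). IL-2 had raised 35 of the 36 (6.56% of all genes), by a median of 1.87. The list mean was 7.16, 6.32 and 6.65 in untreated replicates 2, 3 and 4 and 6.39, 6.39 and 6.01 at 4 µM. Untreated replicate 2, the sample with no time in its title and on the other intensity scale, was thus the highest, and the 4 µM samples overlapped replicate 3. The lower-scale samples alone gave a list median of -0.16 with 23 of 36 below. All genes stood at -0.02 there and the much dimmer olfactory and vomeronasal receptor genes at -0.26. Leaving out untreated replicate 3 gave a list median of -0.52, beside -0.08 for all genes.

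The promoters of Ifit1 and Ifit3 are shown because both genes lay below untreated and carry letters of the interferon-stimulated response element close to the start, and that of Socs1 because it carries the same letters and lay at the untreated level. These 3 were chosen after their values had been seen. Each run gives the 250 bases before the gene's start, 5′ to 3′ on the gene's strand, from RefSeq (GRCm38.p6), with capitals for matches to the letters gaaa, any 2 bases and gaaa again, on either strand. They span chr19:34640639-34640888 (plus strand) for Ifit1, chr19:34583279-34583528 (plus strand) for Ifit3 and chr16:10785537-10785786 (minus strand) for Socs1.
Ifit1: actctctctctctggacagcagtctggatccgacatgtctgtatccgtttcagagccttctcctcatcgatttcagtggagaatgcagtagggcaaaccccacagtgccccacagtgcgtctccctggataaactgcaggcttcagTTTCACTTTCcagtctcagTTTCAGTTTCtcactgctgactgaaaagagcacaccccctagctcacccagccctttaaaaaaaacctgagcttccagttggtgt
Ifit3: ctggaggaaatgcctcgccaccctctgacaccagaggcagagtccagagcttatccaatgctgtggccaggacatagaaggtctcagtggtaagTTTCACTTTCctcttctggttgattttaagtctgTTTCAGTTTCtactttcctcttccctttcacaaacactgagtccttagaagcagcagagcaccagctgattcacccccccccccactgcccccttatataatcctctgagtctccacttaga
Socs1: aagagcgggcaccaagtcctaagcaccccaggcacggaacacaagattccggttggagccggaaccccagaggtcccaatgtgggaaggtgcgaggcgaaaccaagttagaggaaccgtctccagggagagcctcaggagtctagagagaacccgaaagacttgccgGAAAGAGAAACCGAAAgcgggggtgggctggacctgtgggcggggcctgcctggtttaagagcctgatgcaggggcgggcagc
The matches in Ifit1 begin 104 and 85 bases before the start and those in Ifit3 begin 156 and 122 bases before it, all on the opposite strand; the 2 matches in Socs1, at 83 and 77 bases, overlap each other. Of 15483 measured genes with such a window, 526 (3.4%) held a match. Among the type I interferon list 8 of 26 windows did (30.8%: Bst2, Ifit1, Ifit3, Oas1a, Oas3, Rsad2, Stat2 and Trim30a). So did 6 of 15 in the interferon-gamma list, 4 of 24 in the cytotoxic list, 1 of 31 in the IL-2/STAT5 list and 0 of 26 among NK cell receptors. The letters ttc, any 3 bases and gaa, a STAT core, were searched too and were found in 1192 windows (7.7%). In the same order of lists they were found in 5 of 26, 6 of 15, 3 of 24, 6 of 31 and 2 of 26. A match is a description of letters, not of binding.

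Rtp4, a receptor-transporting protein induced by interferon, had the lowest value of the list. It measured 7.16, 6.17 and 6.18 untreated, 8.30 to 9.18 with IL-2, and 5.78, 5.32 and 4.64 at 4 µM. All 3 samples at 4 µM were below all untreated samples, the JAK1 inhibitor sample lowest; the difference was -1.26 ± 0.29 (interval -1.86 to -0.66), its adjusted p 0.302, and its lower-scale value -0.93. Ifit1, which binds foreign RNA and whose promoter is printed above, measured 6.23, 5.85 and 5.8 untreated and 5.44, 5.0 and 4.71 at 4 µM. The groups did not overlap, and the difference was -0.91 ± 0.24 (interval -1.42 to -0.40, adjusted p 0.333; -0.78 on the lower scale alone). Ifit3, its partner, measured 6.95, 6.71 and 6.4 untreated and 6.35, 4.85 and 5.28 at 4 µM. Its groups were separated only narrowly, by JAK3 inhibitor replicate 1, and the difference was -1.19 ± 0.34 (adjusted p 0.339). Ifit genes are close copies, so their probes may share signal.

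The oligoadenylate synthetase family, antiviral sensors of double-stranded RNA, lay on the same side in the main fit. Oas2 measured 6.49, 5.78 and 6.24 untreated and 5.62, 5.76 and 5.04 at 4 µM (-0.70 ± 0.23), and Oas3 6.59, 6.07 and 6.32 against 5.59, 5.72 and 5.22 (-0.82 ± 0.28). Neither gene's groups overlapped, though those of Oas2 were separated only narrowly, at 5.76 against 5.78. Neither gene passed the test, with adjusted p values of 0.382 and 0.404 (limma). Oasl2 differed by -0.95 ± 0.27, with untreated replicate 3 and JAK3 inhibitor replicate 2 both at 6.90. Rsad2, which encodes the antiviral enzyme viperin, measured 6.89, 5.63 and 6.48 untreated and 5.81, 5.15 and 4.95 at 4 µM; the groups overlapped through untreated replicate 3, and the difference was -1.03 ± 0.30 (-0.75 on the lower scale alone). The antiviral factor Mx2 differed by -0.55 ± 0.23 and Irf7, a transcription factor that amplifies interferon production, by -0.43 ± 0.28. With a replicate block Oas3 lay above untreated, at 0.14, and Irf7 at 0.01. In that fit Oas2 was at -0.31, Oasl2 at -0.51, Rsad2 at -0.89 and Mx2 at -0.12.

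**Figure D3:**
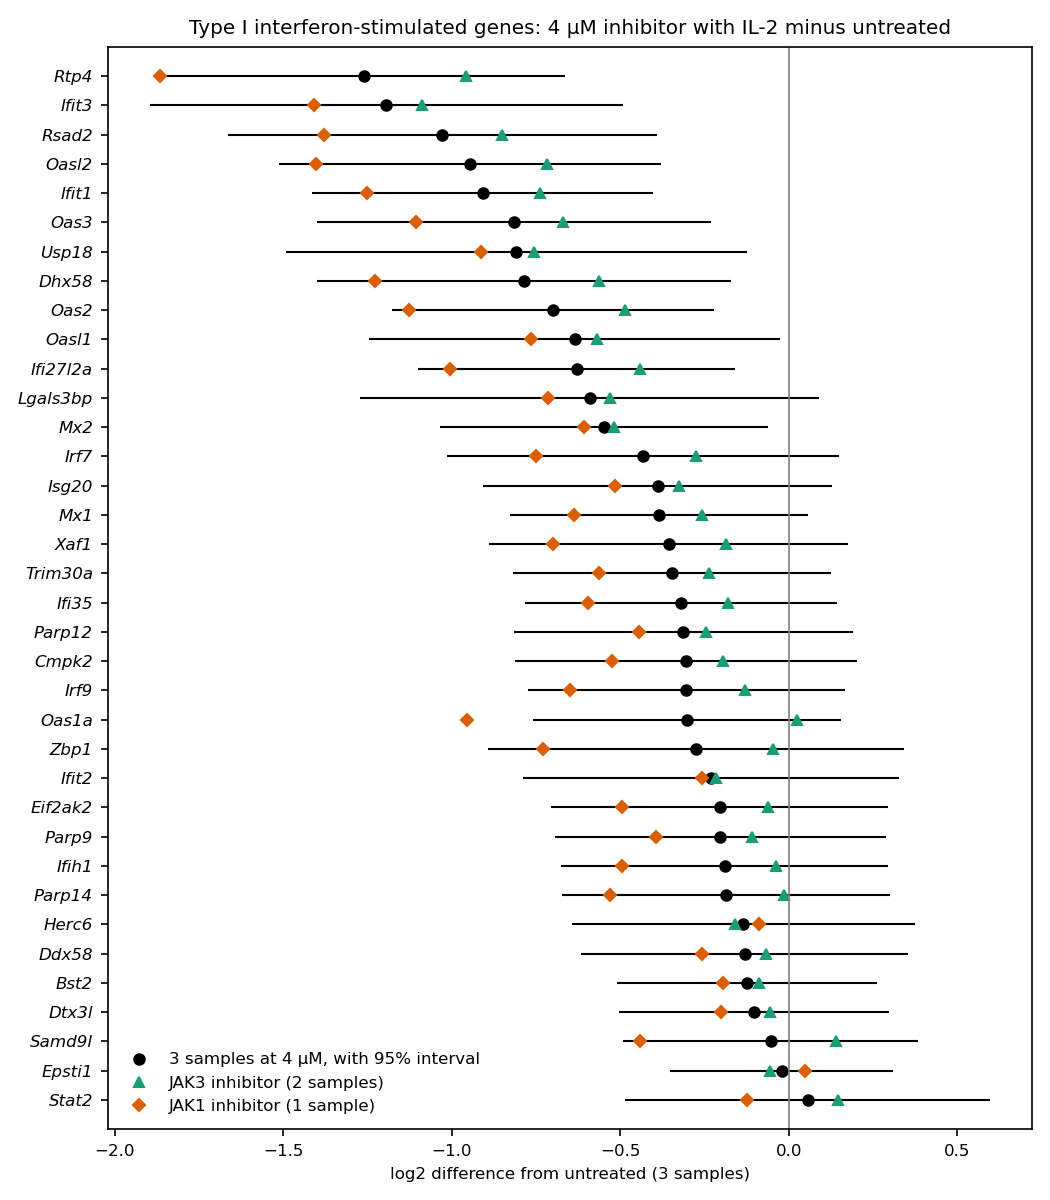
Log2 difference between 4 µM inhibitor and untreated samples for the 36 measured type I interferon-stimulated genes, with 95% intervals, and the separate values of the JAK3 and JAK1 inhibitor. All genes but Stat2 have a value below 0, and the JAK1 inhibitor value lies below the JAK3 inhibitor value in 34 of 36.

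Genes of the interferon-gamma response lay on both sides of the untreated level. Of 22 measured genes, including GTPases of the Gbp and Irgm families, 12 lay below untreated and 10 above, with a median of -0.04. IL-2 had raised 20 (6.56% of all genes), and 21 were lower at 4 µM than with IL-2 (6.04% of all genes). Without untreated replicate 3, 20 of the 22 lay below, with a median of -0.20, and after quantile normalization 16 did; the difference from the type I interferon list was not tested. Ido1, which degrades tryptophan, measured 4.97, 4.65 and 4.95 untreated and 4.23, 4.39 and 4.25 at 4 µM, without overlap (-0.56 ± 0.17, adjusted p 0.363). Wars, a tryptophan-charging enzyme, lay above without overlap at 7.35, 7.30 and 7.48 against 7.11, 6.6 and 7.09 (0.45 ± 0.18). Cd274, the inhibitory ligand PD-L1, lay below at 7.07, 7.46 and 7.46 against 7.72, 7.72 and 7.67 (-0.38 ± 0.16). Genes of MHC class I processing (14 measured) had a median of 0.00, and the 8 Schlafen genes a median of -0.18, which was 0.02 on the lower scale alone. Ly6i, a surface protein of the Ly6 family that no list held, measured 7.34, 7.27 and 7.66 untreated and 6.47, 6.61 and 5.8 at 4 µM. Its difference of -1.13 ± 0.23 (interval -1.61 to -0.65, adjusted p 0.266) was -1.17 on the lower scale alone, and IL-2 had raised it by 1.48; Ly6 genes are near copies of each other and may share probes.

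All 13 measured NK marker genes had a value above untreated at 4 µM, with a median of 0.31 beside -0.035 for all genes and 0.10 for the brightest 6584. None passed the adjusted test; 4 had an unadjusted p under 0.05 (2.41% of all genes were higher on that count) and 3 had groups that did not overlap, Prf1, Nkg7 and Il2rb (2.4% of all genes). IL-2 had raised 11 of them (6.56% of all genes), with a list median of 1.52. At 4 µM 10 were lower than with IL-2 (6.04% of all genes). The list means given above do not overlap between the groups, while the IL-2 samples reached 8.99 to 9.41. The lower-scale samples alone gave a median of 0.39, and the title-form term one of -0.44. Several of these genes are themselves IL-2 targets, and a higher share of NK cells and more RNA per cell cannot be told apart here.

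Genes of the cytotoxic machinery divided much as bright genes did as a whole. Of 26 measured genes 19 lay above untreated and 7 below, with a median of 0.09 (0.19 on the lower scale alone); among the brightest 6584 genes 25.5% lay below, with a median of 0.10. Nkg7, a granule membrane protein, measured 9.31, 9.16 and 9.17 untreated and 9.54, 9.68 and 9.56 at 4 µM, without overlap (0.38 ± 0.17), beside a rise of 2.35 with IL-2. Gzma, another granule protease, differed by 0.53 ± 0.26, Cst7, an inhibitor of granule cathepsins, by 0.40 ± 0.17, and Fasl, a death ligand, by 0.34 ± 0.16. None of these 4 passed the test. Of the cytokines and chemokines 17 of 22 lay below untreated, with a median of -0.13, beside 56.4% of all genes and 81.3% of the dimmest 6584; with median centring the list had 12 of 22 below and a median of -0.02. Ccl4, a chemokine, measured 5.51, 5.0 and 5.20 untreated and 5.0, 4.47 and 4.79 at 4 µM (-0.49 ± 0.20), against an IL-2 rise of 2.52. Tgfb1 was the member farthest above, at 0.45 ± 0.17, a value that was 0.18 without untreated replicate 3.

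Among 34 measured NK cell receptors, 22 lay above untreated and 11 below, with a median of 0.11 that was -0.04 with median centring. Fcgr3, the Fc receptor CD16 of antibody-dependent killing, measured 7.92, 8.32 and 7.68 untreated and 8.79, 8.45 and 8.55 at 4 µM. The groups did not overlap; the difference was 0.62 ± 0.21 and did not pass the test, while IL-2 alone lay on the other side of untreated at -0.74. Macrophages and neutrophils also express Fcgr3. Klri1, of the killer lectin-like receptors, differed by -0.30 ± 0.15, with the JAK1 inhibitor sample at 7.76 and the JAK3 inhibitor samples at 7.13 and 6.98. Cd7 measured 10.02, 9.68 and 9.90 untreated and 9.96, 10.30 and 10.19 at 4 µM, and with IL-2 it fell by 1.90 on the log2 scale. The NK transcription factors (20 measured) had a median of 0.14, with Eomes, which sustains NK maturation, at 0.41. The cytokine receptors (23 measured) had a median of 0.12, with Il12rb2, a chain of the IL-12 receptor, at 0.55 ± 0.20. Without untreated replicate 3 these medians were -0.05 and -0.04.

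Genes of quiescence and of signalling had medians slightly above untreated, close to the 0.10 of the brightest 6584 genes. Of 29 FOXO targets and quiescence genes, which PI3K-AKT signalling keeps down, 25 lay above, with a median of 0.16. IL-2 had lowered 8 (2.59% of all genes), and 13 were higher at 4 µM than with IL-2 (3.62% of all genes). Txnip, a brake on glucose uptake, measured 8.79, 8.14 and 8.38 untreated and 9.41, 9.01 and 8.54 at 4 µM (0.55 ± 0.18), the JAK1 inhibitor sample within the untreated range. Klf3 and Tsc22d3 differed by 0.31 ± 0.16 and 0.37 ± 0.19. The median of this list was 0.28 on the lower scale alone and 0.02 without untreated replicate 3, so it depends on that sample. Components of the JAK-STAT pathway (20 measured) lay above untreated in 15 cases, about the share of the brightest genes, with a median of 0.12 that was -0.05 without untreated replicate 3.

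The biosynthetic programme that IL-2 switched on was near the untreated level in the main fit. Of 44 ribosome biogenesis and nucleolar genes IL-2 raised 39, beside 6.56% of all genes. At 4 µM 35 were lower than with IL-2, beside 6.04% of all genes. Against untreated the median was -0.04 and 27 lay below. With a replicate block the median was 0.46 and 1 of 44 lay below, beside a median of 0.01 for all genes. Npm1, the nucleolar chaperone nucleophosmin, stood out in this list at 8.88, 8.61 and 8.59 untreated and 7.99, 7.47 and 8.48 at 4 µM. All values at 4 µM were lower, JAK3 inhibitor replicate 2 most; the difference was -0.72 ± 0.15 (interval -1.03 to -0.40, adjusted p 0.266). Npm1 has processed pseudogenes that may share its probes. Genes of polyamine, nucleotide and one-carbon synthesis (26 measured) had a median of 0.02 and those of oxidative phosphorylation (29 measured) 0.14. With a replicate block these medians were 0.44 and 0.6. Targets of AHR and NRF2 (17 measured) had a median of -0.19, with 12 below, and of 0.04 with median centring; Nqo1, a quinone reductase, measured 7.95, 7.05 and 7.52 untreated and 5.62, 7.59 and 7.05 at 4 µM. Only JAK3 inhibitor replicate 1 was low, and the difference of -0.75 ± 0.32 was -0.18 without that sample.

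**Figure D4:**
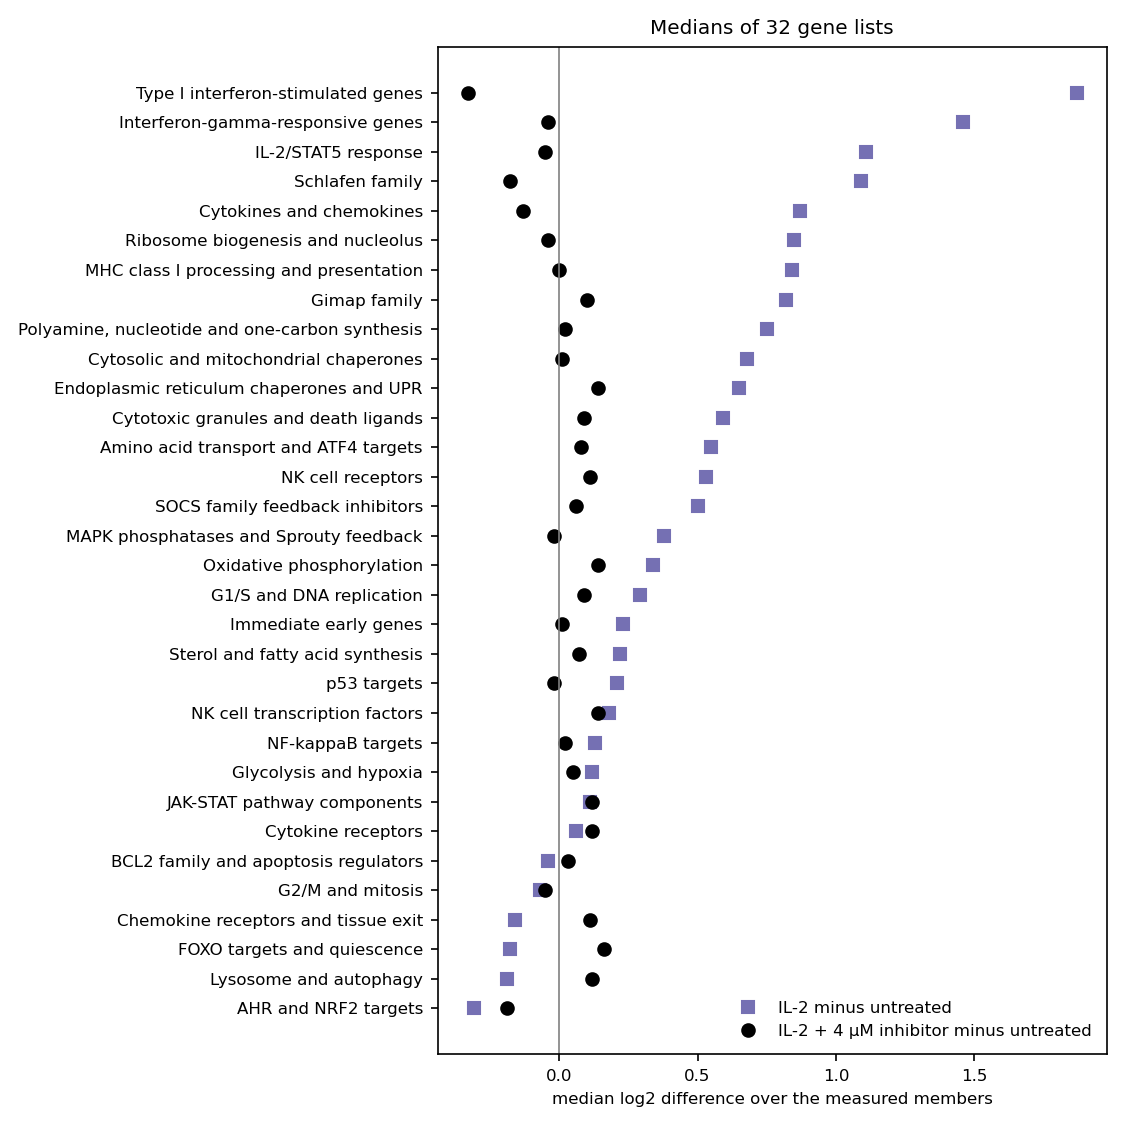
Median log2 difference from untreated samples over each of 32 gene lists, for IL-2 alone and for IL-2 with 4 µM inhibitor; the comparisons share the untreated samples. At 4 µM the medians lie close to 0 apart from the type I interferon list at -0.33, whereas with IL-2 that list is at 1.87.

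Macrophage and monocyte genes that were low with IL-2 were near the untreated level at 4 µM. IL-2 lowered 13 of 20 macrophage and monocyte genes, beside 2.59% of all genes. At 4 µM 14 were higher than with IL-2, beside 3.62% of all genes. Their mean was 8.29, 8.05 and 8.10 untreated, 6.6 to 6.87 with IL-2, and 8.16, 8.06 and 7.96 at 4 µM, so that the 4 µM samples overlapped the untreated ones and none overlapped the IL-2 samples. Adgre4, a macrophage adhesion receptor, and Clec4a3, a myeloid lectin, differed from untreated by 0.03 and 0.00 at 4 µM, against -3.08 and -2.95 with IL-2. The monocyte genes Lyz2, Csf1r and Cd14 differed by 0.00, -0.02 and -0.09, against -1.87, -1.93 and -1.95. B cell genes had a median of -0.05 and MHC class II genes of -0.01. IL-2 lowered 10 of 17 neutrophil genes (2.59% of all genes), with a list median of -0.75. At 4 µM 7 were higher than with IL-2 (3.62% of all genes), and the list median was -0.08 against untreated. Ly6g, their defining surface marker, was the 1 gene of the 17 whose groups did not overlap, and 10.5% of all genes were lower on that count. It measured 8.01, 7.78 and 7.81 untreated and 6.58, 7.34 and 7.42 at 4 µM (-0.75 ± 0.19, limma, adjusted p 0.333). The difference was -0.48 without JAK3 inhibitor replicate 1. Like Ly6i, Ly6g may share probes with other Ly6 genes. With IL-2 it fell by 0.77 on the log2 scale, and 4 µM differed from IL-2 by 0.02. T cell genes had a median of -0.18, which was 0.07 without JAK3 inhibitor replicate 1 and 0.22 with median centring, and G2/M genes a median of -0.05, which was 0.28 without that sample and -0.31 without JAK3 inhibitor replicate 2.

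**Figure D5:**
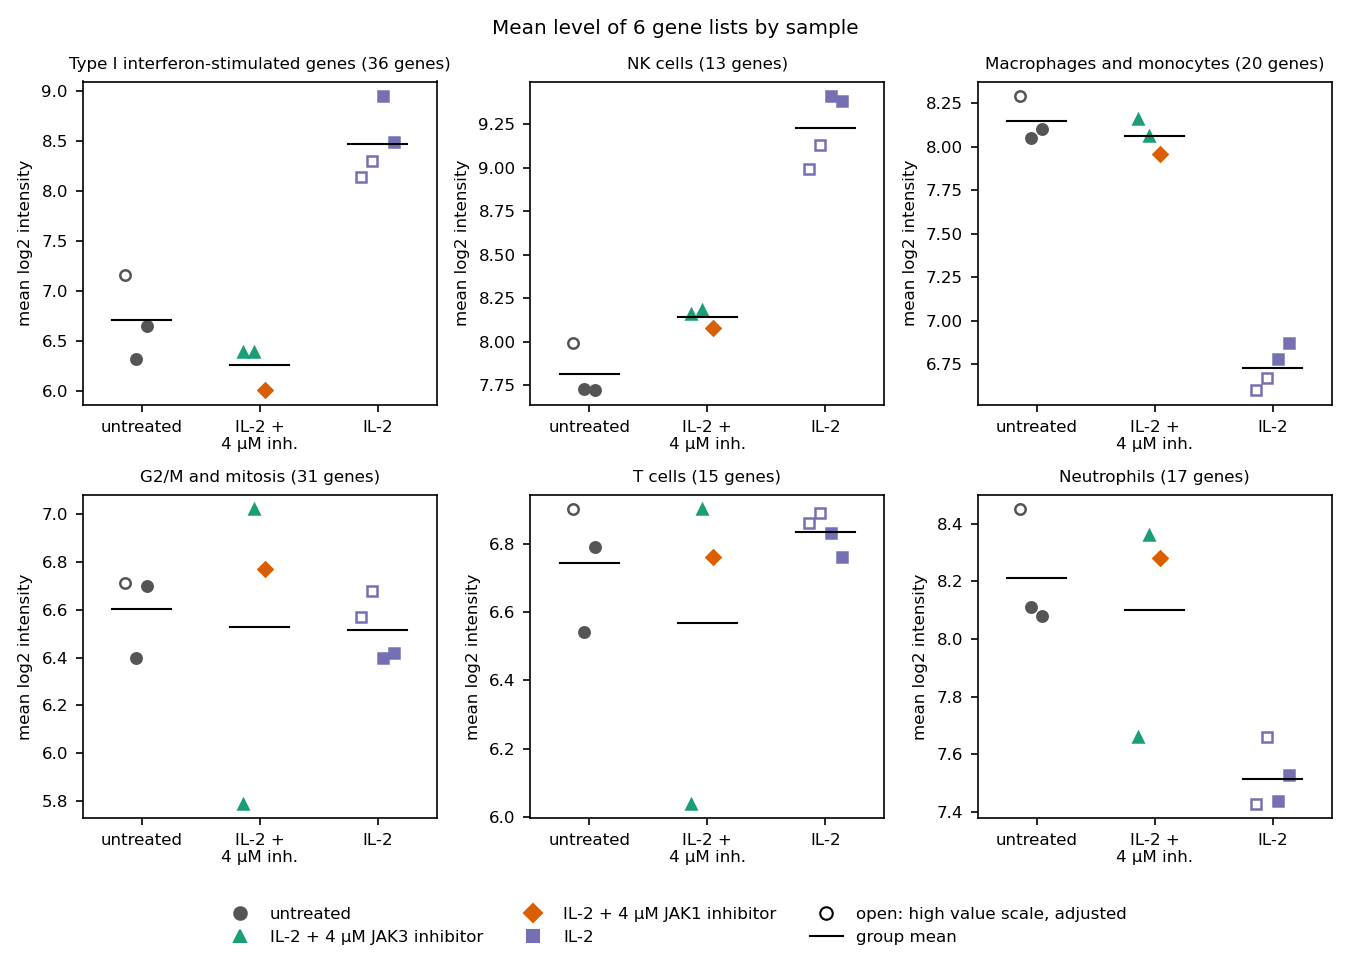
Mean log2 intensity over 6 gene lists in each untreated sample, each 4 µM sample and each IL-2 sample. NK cell genes are slightly higher at 4 µM than untreated, and macrophage genes overlap between these groups. Of the untreated and 4 µM samples, JAK3 inhibitor replicate 1 is the lowest in the G2/M, T cell and neutrophil lists. In the neutrophil list the IL-2 samples lie at 7.43 to 7.66, beside 7.66 in that sample.

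The inhibitors were compared at the same dose, as 1 pair, with 1 sample against 2. The titles of these samples name no time, and 8 h comes from the series' design text. The fit gave the lone JAK1 inhibitor sample the spread of the other groups. No gene passed (0%, limma, adjusted p of 1 for every gene), and 532 had an unadjusted p under 0.05. The difference could be bounded within 2-fold in 18905 genes (95.7%). Each inhibitor alone against untreated also gave no call: 0 genes (0%) for the JAK3 inhibitor, with 1714 at an unadjusted p under 0.05 and a smallest adjusted p of 0.209, and 0 (0%) for the JAK1 inhibitor, with 1270 and 0.329. Among the IL-2 panel genes, the JAK1 minus JAK3 inhibitor difference was 0.10 (interval -1.04 to 1.25) for Gzmb, 0.11 (-0.45 to 0.67) for Ifng and -0.23 (-0.69 to 0.24) for Cish. These intervals leave room for differences of the size of their bounds.

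Type I interferon-stimulated genes were lower with the JAK1 than with the JAK3 inhibitor in 34 of 36 cases, by a median of -0.40; their medians against untreated were -0.62 and -0.23. None passed the test. The list mean was 6.01 in the lone JAK1 inhibitor sample and 6.39 in each JAK3 inhibitor sample, while the untreated samples ran from 6.32 to 7.16. All these genes were read in the same 1 array, so they are not separate observations of the inhibitor. Over all genes 61.2% were lower with the JAK1 inhibitor, with a median of -0.055. Some other lists lay on the same side, with 7 of 8 Schlafen genes (median -0.35) and 12 of 14 MHC class I genes (-0.32). So did 17 of 22 interferon-gamma genes (-0.24), 8 of 8 Gimap genes (-0.22) and 24 of 29 oxidative phosphorylation genes (-0.16). Lists on the other side included neutrophil genes, with 5 of 17 lower (median 0.41), and G2/M genes, with 4 of 31 (0.21). T cell genes, with 2 of 15 (0.21), and amino acid transport and ATF4 genes, with 6 of 27 (0.16), were there too. JAK3 inhibitor replicate 1 stood apart in the neutrophil, G2/M and T cell lists, as given above. Rtp4 differed between the inhibitors by -0.91 ± 0.42, Oas1a by -0.98 ± 0.32 and Slfn5, a Schlafen gene, by -1.21 ± 0.49. The JAK1 inhibitor sample was the lowest of the 6 in all 3 genes: Oas1a measured 4.40 there against 5.48 and 5.27 with the JAK3 inhibitor and 5.59, 5.01 and 5.46 untreated, and Slfn5 4.25 against 5.85 and 5.08, and 6.59, 5.36 and 5.35. Other large differences followed JAK3 inhibitor replicate 1: Bub1, a mitotic checkpoint kinase, was at 4.46 in that sample, 6.76 in the other JAK3 inhibitor sample and 6.62 with the JAK1 inhibitor. In all, 12 genes were at least 2-fold higher and 4 at least 2-fold lower with the JAK1 inhibitor. Il2ra was 0.84 ± 0.29 higher and Npm1 0.75 ± 0.22 higher with it, both without passing the test.

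Differences of at least 2-fold between 4 µM and untreated were seen in 6 genes, 2 higher (0.0101%) and 4 lower (0.0203%); these genes were picked by that size, and their values are a description. The lower ones were Rtp4, Ifit3, Ly6i and Rsad2, described above. Eola1 measured 5.41, 4.89 and 5.27 untreated and 6.20, 6.26 and 6.13 at 4 µM. Its groups were clearly separated, the difference was 1.01 ± 0.21 (interval 0.58 to 1.44, adjusted p 0.266) and 1.11 on the lower scale alone, and IL-2 alone was at 0.00. Against IL-2 alone Eola1 was higher at 4 µM, by 1.00 (adjusted p 0.00191). Slc15a2, a peptide transporter, measured 4.81, 4.38 and 4.73 untreated and 7.37, 5.13 and 4.64 at 4 µM. Its value rested on JAK3 inhibitor replicate 1: the difference was 1.08 ± 0.33, and 0.25 without that sample.

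Other genes with small p values were Arfgap2, a regulator of Golgi transport, and Thbs1, the matrix protein thrombospondin 1. Arfgap2 measured 8.13, 7.46 and 7.69 untreated and 8.80, 8.37 and 8.93 at 4 µM, without overlap (0.94 ± 0.19, adjusted p 0.266). Thbs1 measured 9.48, 8.26 and 8.61 untreated and 9.97, 9.63 and 9.40 at 4 µM. Untreated replicate 2 lay inside the 4 µM range, and the difference was 0.88 ± 0.24 (adjusted p 0.333), with IL-2 alone at -1.10. Both genes passed the test when untreated replicate 2 was left out, which gave 15 calls, 5 higher and 10 lower. The higher ones were Thbs1 (1.23, adjusted p 0.0261), Arfgap2 (1.13), Sft2d2 (1.01), Smim20 (0.88) and Orc5 (0.75); of the lower ones 8 were olfactory or vomeronasal receptor genes and the other 2 predicted genes. Leaving out untreated replicate 3 gave 1 call, the matrix protease Mmp14 (-0.92, adjusted p 0.0387), and leaving out JAK3 inhibitor replicate 2 gave 1, Slc15a2 (1.37, adjusted p 0.00179), which then rested on JAK3 inhibitor replicate 1.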

How the data were processed

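Splenic NK cell RNA, extracted with TRIzol, was hybridised to Affymetrix Mouse Gene 1.0 ST arrays, 1 per sample. The authors deposited linear intensity values per probe set, made with Affymetrix Power Tools and RMA per the submitters' processing notes, versions not given in the sources used here. Why the deposited intensities lay on a pair of scales is not stated. Of 24922 probe sets, 21425 carried 1 gene symbol in the platform annotation, 1399 several and 2098 none; those with 1 were used, and for 921 genes with several probe sets the one with the highest mean was kept, which left 19752 genes.

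Log2 intensities of all 19 samples were fitted in limma 3.58.1 (R 4.3.3, lmFit and eBayes with an intensity trend), with a mean per group and a term for the scale (sample median log2 above or below 6.6). The 4 µM group was the mean of its 3 samples. Benjamini-Hochberg adjustment ran over all genes, threshold 0.05; 95% intervals used the moderated degrees of freedom. The fit was tested on simulated data.

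Genes named were a panel of 25, the genes with the largest called changes (there were none in the comparison with untreated), up to 4 members with the smallest p in each described list and up to 3 in each marker list. Others were chosen after their values were seen: the promoters printed, Rsad2, Ly6i, Eola1, Slc15a2, the genes called without 1 sample, Oas1a, Oas2, Oas3, Mx2, Stat2, Fasl, Mpo, Bub1 and the myeloid genes Adgre4, Clec4a3, Lyz2, Csf1r and Cd14. The members and the lists (32 response lists, of which 746 of 810 genes were measured, and 12 marker lists, 157 of 177) were chosen with earlier results of these data known. The main fit did not pair samples by replicate number. Deviations from group means of 38 same-numbered pairs correlated at -0.54 to 0.698, with 16 above 0.1. In a group of 2 samples these deviations mirror each other. Pairs between such groups therefore gave the same value under replicate numbers 1 and 2, so the 38 include repeats. Differently numbered pairs were not set beside them, so these values cannot decide whether the numbers pair the samples. No gene was excluded for low intensity. Alternatives were quantile normalization, lower-scale samples only, median centring, a term for the form of the titles in place of scale, a replicate block, a filter on dim genes, the mean of probe sets, no trend, the 4 µM samples as 1 group, the compared groups only, and each sample left out. Promoter windows came from RefSeq (GRCm38.p6).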

Additional observations from a re-analysis of the deposited data

Results flagged for a closer look

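Among the 4 samples with IL-2 alone, 1 sample lay apart from the others by Dixon's criterion in 5 of 71 genes named, a criterion that chance alone meets in about 1 of 20 groups. Replicate 3 was the highest for Cxcl10, at 10.19 with the nearest sample at 9.59, and for Ifit1, at 8.78 with the nearest at 7.88. Replicate 1 was the lowest for Myc, at 9.49 with the nearest at 9.74, for Sft2d2, at 7.93 with the nearest at 8.34, and for Socs2, at 6.97 with the nearest at 7.34. All these values are log2 intensities with the scale effect removed. None of these samples enters the difference between 4 µM inhibitor and untreated except through the shared spread and the scale term. Groups of 3, which include both groups compared, are too small for this criterion.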

How the results depend on the processing

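The count of 0 genes between 4 µM inhibitor and untreated stayed at 0 under quantile normalization (2260 at an unadjusted p under 0.05), the lower-scale samples alone (2524), median centring (781), the title-form term (5405, with a median over all genes of -0.586), the filter on dim genes (1238), the mean of probe sets (2045), no trend (1963), 1 group of 3 (2129) and the compared groups only (1727); leaving out 1 sample gave 0 to 15. For the JAK3 inhibitor against untreated the title-form term gave 2195 calls, all lower, and leaving out 1 sample 0 to 49. For the JAK1 inhibitor the compared groups alone gave 78 (3 higher, 75 lower), and leaving out 1 sample 0 to 2. Between the inhibitors the compared groups alone gave 1, and leaving out 1 sample 0 to 27. IL-2 against untreated gave 962 calls on the lower scale alone, 783 with median centring, 269 with the title-form term, and 1210 to 3069 without 1 sample; quantile normalization gave 1447 higher and 1238 lower. For 4 µM against IL-2 the counts were 3116 with quantile normalization (1581 higher, 1535 lower), 823 on the lower scale alone, 925 with median centring, 38 higher and 1787 lower with the title-form term, and 1220 to 2456 without 1 sample. The replicate block gave 0 calls between 4 µM and untreated (3048 at an unadjusted p under 0.05), 3233 for IL-2 and 568 for 4 µM against IL-2 (335 higher, 233 lower). It gave the type I interferon list a median of 0.03, with 16 of 36 below untreated. The medians of all response lists lay above 0 with it, beside 0.01 for all genes. They were 0.46 for ribosome biogenesis, 0.35 for the IL-2/STAT5 response and 0.37 for FOXO targets. Whether replicate numbers pair the samples was not settled. The causes were not tested. Signal over background was not given, so no limit per gene could be set.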

Other observations

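Lists not described above also lay near the untreated level at 4 µM. Chaperones of the endoplasmic reticulum (21 measured) had a median of 0.14, with 16 above untreated and 5 below. IL-2 had raised 14 of the 21 (6.56% of all genes). Genes of amino acid transport and ATF4 (27 measured) had a median of 0.08, lysosome and autophagy genes (21 measured) 0.12, and chemokine receptors and tissue exit genes (17 measured) 0.11 with 15 above. G1/S and DNA replication genes (39 measured) had a median of 0.09, p53 targets (18 measured) -0.02, NF-kappaB targets (21 measured) 0.02, immediate early genes (24 measured) 0.01 and MAPK phosphatases (14 measured) -0.02. No gene of these lists passed the test. Genes of stroma and endothelium (14 measured) lay below untreated in 13 cases, with a median of -0.14. These genes are dim, and 62.4% of the middle 6584 genes and 81.3% of the dimmest 6584 lay below. With quantile normalization 9 of the 14 lay below, with a median of -0.04.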
